A study of Drosophila melanogaster with 9 samples.

Results

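The Jonah 65A serine proteases are a small cluster of digestive enzyme genes in Drosophila melanogaster, and the group described here comprised Jon65Ai, Jon65Aii, Jon65Aiii and Jon65Aiv together with yip7, a related protease gene of the same cluster. The members were taken by name from the deposited tables, where 5 of 5 were found among 10245 genes. All 5 passed the filter on low values, at least 1 RPKM in at least 3 libraries, which 8036 genes met. RPKM, a read number scaled to transcript length and library total, allows levels of different genes to be compared. RNA came from whole guts of adult females of the wild-type strain Oregon R that were fed 10% glucose, agar or standard medium. Each diet had 3 biological repeats, giving 9 libraries. Neither the age of the flies nor the time on each diet is given in the sources used here, and the labels name no mutation or transgene.

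Serine proteases of the chymotrypsin and trypsin family cut dietary protein in the lumen of the midgut. They are secreted as inactive precursors and are activated by removal of a short leading peptide. The Jonah genes are a Drosophila family of such proteases, named after the chromosome band in which each cluster lies, and are known for strong expression in the gut. The gene yip7 was named for the binding of its product to the protein Yippee and encodes a protease of the same family. The title of the series concerns the regulation of digestive enzymes by sugar, and the 3 diets set glucose against agar and against the standard food.

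In the RefSeq gene table (Release 6 of the genome) the 5 genes lie on chromosome arm 3L, in the order yip7, Jon65Aiv, Jon65Aiii, Jon65Aii and Jon65Ai. A long non-coding RNA gene and CG6462 stand between yip7 and Jon65Aiv, and no other annotated gene stands between the remaining members. Jon65Ai is on the minus strand and the other 4 are on the plus strand, per the BDGP6.54 annotation. Jon65Ai has 1 exon and the other 4 have 2 exons. The predicted proteins are close in size, with 274 residues for Jon65Aiii, 271 for Jon65Aiv, 270 for yip7, 262 for Jon65Ai and 259 for Jon65Aii. The build that the authors aligned to is not given in the sources used here, so no coordinates are given. Related genes can share reads, and how far that holds for these 5 was not tested.

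The library totals recovered from the values ranged from 34899709 to 48389188 reads. With these totals, all 45 values of the 5 genes came out as whole read numbers within a relative tolerance of 1e-09, using 1 transcript of 860 nucleotides for Jon65Ai. Of 3317 genes with 1 annotated transcript, 2031 to 2034 came out whole in a library. Some larger totals would also keep the numbers whole, and the smallest fitting total was taken. The smallest number behind any value was 12035 reads, for Jon65Ai, and the largest was 534732, for Jon65Aiv. Counting error was therefore at most 0.912% of a value, below the spread between repeats. Libraries of one diet differed in likeness. Across genes (no independent replicates of one another), Pearson's r was 0.984 to 0.992 among the glucose libraries. Agar replicate 3 had r of 0.958 and 0.971 with the other 2 agar libraries, which had 0.984 with each other. Standard replicate 1 had r of 0.953 and 0.956 with the other 2 standard libraries, which had 0.986 with each other. Agar replicate 3 and standard replicate 1 were therefore each left out in turn.

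Markers of the gut lining were present in all 9 libraries. Of 4 enterocyte markers 4 were tested, and their summed level was 5570 to 7063 RPKM on glucose, 3415 to 7886 on agar and 6002 to 8956 on standard medium, most of it from betaTry. The enterocyte markers mex1 and nub were higher on both glucose and agar, by 0.50 and 0.44 on the log2 scale for glucose versus standard (adjusted p = 0.0338 and 0.0460) and by 0.48 and 0.47 for agar versus standard (adjusted p = 0.0236 and 0.0238). Myo31DF (0.16 and 0.21) and betaTry (-0.15 and -0.39) did not pass in either comparison. The progenitor marker esg (0.54 and 0.52) and the enteroendocrine marker Tk (0.52 and 0.43) were also called higher in both, and the enteroendocrine markers npf, Ast-C and Dh31 in neither. Over all tested genes 21.3% were called higher on glucose and 37.7% higher on agar than on standard medium. The calls of markers are therefore not read as a result about the markers. Markers were tested in the main fit only, with no other scaling and no library left out. The 3 progenitor markers summed to 6.86 to 7.20 RPKM on glucose, 6.09 to 7.91 on agar and 4.29 to 4.95 on standard medium. The 5 listed enteroendocrine markers with a row summed to 4977 to 5449, 4966 to 6186 and 4607 to 5341 RPKM on glucose, agar and standard medium. Visceral muscle markers, 7 of 7 tested, summed to 329 to 491, 351 to 486 and 341 to 480 RPKM, and fat body markers, 5 of 8 tested, to 337 to 392, 264 to 379 and 290 to 404. Of the Malpighian tubule, neuron, haemocyte and ovary markers 2, 1, 0 and 0 were tested, and none of these lists summed to more than 8.34 RPKM in a library. The 2 salivary gland markers had no row. The part of any of these markers in the results below was not tested. In whole guts, fewer cells of a type and less RNA per cell cannot be told apart.

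Jon65Aiii, yip7 and Jon65Aiv were among the most abundant transcripts of the gut, and Jon65Aii and Jon65Ai were several times lower. Ranked by RPKM among all 10245 genes, Jon65Aiii lay between rank 3 and 7 in the 9 libraries, yip7 between 2 and 10 and Jon65Aiv between 2 and 16. Jon65Aii lay between rank 45 and 72, and Jon65Ai between 44 and 155. Over the 29 protease genes formed by these 5, 12 other Jonah genes and 12 trypsin genes, only the trypsin gene alphaTry had a higher mean level over the 9 libraries (8707 RPKM) than Jon65Aiii (6881). The gene yip7 came next (6744), followed by betaTry (6297) and Jon65Aiv (5879). The reads of the 5 genes together made up 1.76%, 1.76% and 1.43% of the library total on glucose, 1.67%, 1.21% and 0.749% on agar and 3.34%, 2.54% and 2.52% on standard medium. All 3 standard libraries lay above all 6 glucose and agar libraries.

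**Figure D1:**
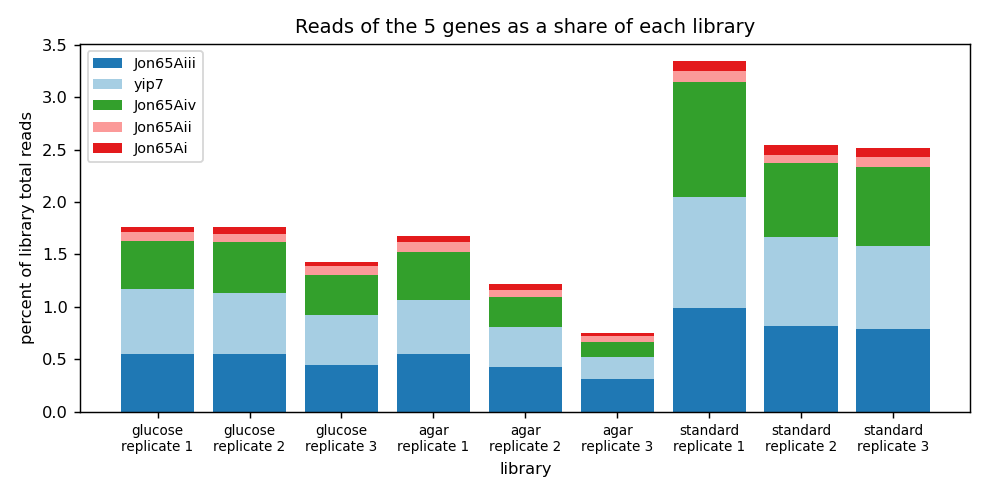
Reads of the 5 genes as a percentage of the library total, stacked by gene, for each of the 9 libraries. The standard libraries reach 2.52% to 3.34%, the glucose libraries 1.43% to 1.76% and the agar libraries 0.749% to 1.67%, and most of each bar comes from Jon65Aiii, yip7 and Jon65Aiv.

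Jon65Aiii was at 6252, 6248 and 5131 RPKM on glucose, at 6255, 4852 and 3564 on agar and at 11286.5, 9332 and 9011 on standard medium, for replicates 1, 2 and 3 in each case. Every standard library was above every library of the other diets, whereas glucose and agar overlapped. Levels of yip7 were 6855, 6506 and 5199 RPKM on glucose, 5684, 4264 and 2349 on agar and 11669, 9413 and 8759 on standard medium. These too were highest in the standard libraries, and agar replicate 1 was above glucose replicate 3. Jon65Aiv was at 5097, 5385 and 4282 RPKM on glucose, at 5151, 3185 and 1551 on agar and at 12224, 7745 and 8293 on standard medium. Of the 5 genes it had the widest range, with its highest library 7.88 times its lowest.

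Of the pair with lower levels, Jon65Ai was at 582, 780.2 and 450.4 RPKM on glucose, at 595, 609 and 322 on agar and at 1012, 1093 and 1067 on standard medium. The standard libraries again lay above all others, and they differed among themselves by a factor of 1.08. Jon65Aii was at 1046, 875 and 963 RPKM on glucose, at 1127, 770.2 and 684 on agar and at 1260.0, 982 and 1142 on standard medium. For this gene alone among the 5 the standard libraries overlapped with those of both other diets. Its highest library was 1.84 times its lowest, the narrowest range of the 5.

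**Figure D2:**
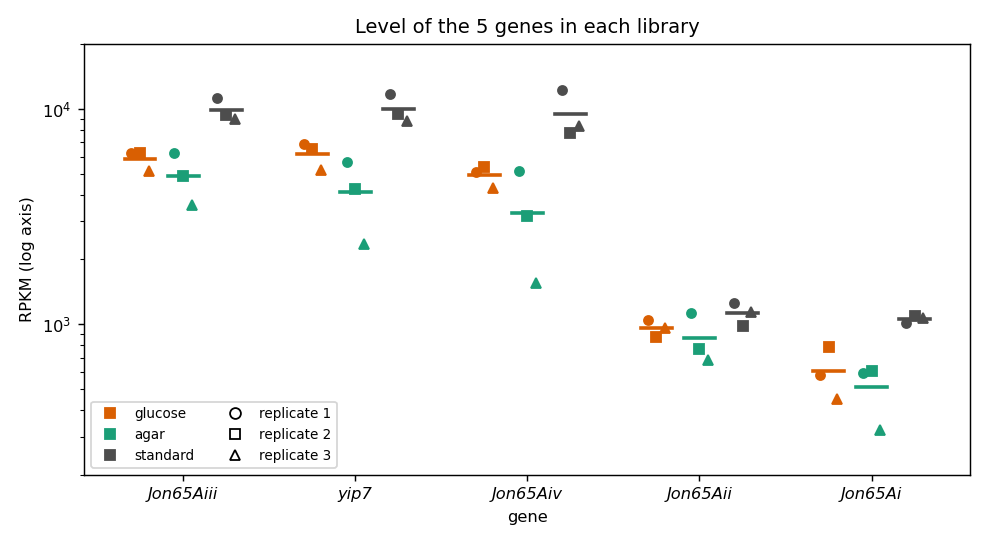
Level of each gene in each library, in RPKM on a log axis, with libraries grouped by diet (glucose, agar, standard from left to right within a gene), symbols for the replicate number and bars for the mean of 3 libraries. Standard libraries lie above the others for Jon65Aiii, yip7, Jon65Aiv and Jon65Ai, and the 3 diets overlap for Jon65Aii.

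The spread between repeats was widest on agar for 5 of the 5 genes. On agar the SD of log2(RPKM + 1) was 0.87 for Jon65Aiv, 0.65 for yip7, 0.52 for Jon65Ai, 0.41 for Jon65Aiii and 0.38 for Jon65Aii, against a median of 0.18 over the 8036 tested genes. On glucose the SDs were 0.13 to 0.21 for 4 of the genes and 0.40 for Jon65Ai, with a median over all genes of 0.11. On standard medium they were 0.06 for Jon65Ai, 0.17 to 0.22 for Jon65Aiii, Jon65Aii and yip7 and 0.36 for Jon65Aiv, with a median over all genes of 0.14. On agar, replicate 3 was the lowest library for each gene, whereas replicate 1 lay within or above the range of the glucose libraries for all 5.

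Agar was compared with standard medium to ask how the cluster stands on agar. Jon65Aiv, yip7, Jon65Ai and Jon65Aiii fell, and Jon65Aii did not pass. Jon65Aiv averaged 3296 ± 1803 RPKM on agar and 9421 ± 2443 on standard medium (SD, n = 3 each), a log2 difference of -1.65 with a SE of 0.39 (limma adjusted p = 0.0143). For yip7 the means were 4099 ± 1673 on agar and 9947 ± 1527 on standard medium (-1.36, SE 0.31, limma adjusted p = 0.0120). Jon65Ai averaged 509 ± 162 on agar and 1057 ± 40.9 on standard medium (-1.11, SE 0.28, limma adjusted p = 0.0168). Jon65Aiii averaged 4890.5 ± 1346 on agar and 9876 ± 1232 on standard medium (-1.04, SE 0.22, limma adjusted p = 0.0104).

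Jon65Aii averaged 860.4 ± 235 RPKM on agar and 1128 ± 139 on standard medium. Its difference of -0.42 (SE 0.21, 95% confidence interval -0.88 to 0.05) missed the threshold of 0.05 (limma adjusted p = 0.130) and passed without agar replicate 1 (-0.63, limma adjusted p = 0.0219). Over all tested genes 2.23% were called lower in this comparison, against 4 of the 5 members. Agar and standard libraries did not overlap, with agar lower, in 4 of the 5 members and in 2.71% of all tested genes. All 5 differences were negative, as were those of 15.2% of all tested genes. The median difference over the 8036 genes was 0.28, and it was -0.0017 after median-ratio scaling, which divides each library by its median ratio to the mean of the libraries. Relative to that shift the members lay lower still, at -0.78 for Jon65Aii and between -1.40 and -2.01 for the others after this scaling. Other alternatives made the differences smaller. Over all alternatives the smallest were -0.27 for Jon65Aii, -0.30 for Jon65Aiii, -0.75 for yip7, -0.81 for Jon65Ai and -1.06 for Jon65Aiv.

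Without agar replicate 3 the same 4 genes passed, with differences between -0.81 for Jon65Ai and -1.19 for Jon65Aiv. They also passed without standard replicate 1, at -0.94 for Jon65Aiii, -1.14 for Jon65Ai, -1.24 for yip7 and -1.45 for Jon65Aiv (limma adjusted p from 0.0308 to 0.0390), where Jon65Aii was at -0.33 (0.279). Without standard replicate 3 Jon65Ai was at an adjusted p of 0.0505, and after quantile normalization Jon65Aiv alone passed (adjusted p = 0.0487).

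**Figure D3:**
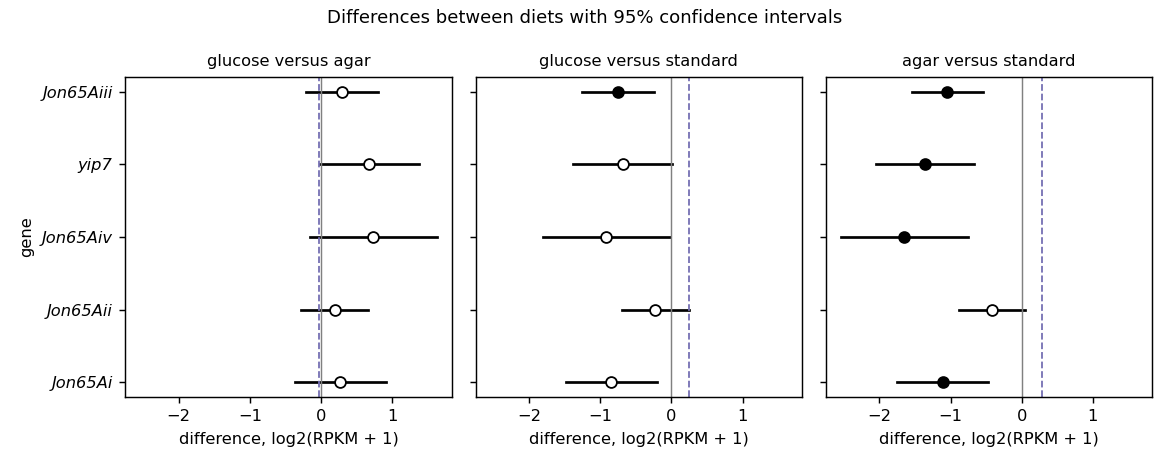
Log2 differences on the log2(RPKM + 1) scale for the 5 genes in the 3 comparisons, with 95% confidence intervals from limma, filled where the adjusted p is under 0.05. The dashed line marks the median over all 8036 tested genes (-0.02, 0.25 and 0.28 from left to right), and all 5 genes lie to its left in both comparisons with standard medium.

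Glucose was compared with standard medium to ask how the same genes stand on sugar. All 5 had negative differences on glucose, as did 13.9% of all tested genes, and Jon65Aiii passed the test. It averaged 5877 ± 646 RPKM on glucose and 9876 ± 1232 on standard medium (-0.75, SE 0.22, limma adjusted p = 0.0433). That call was retained without agar replicate 1 (0.0264) or agar replicate 3 (0.0160) and was lost without any 1 of the other 7 libraries (0.0666 to 0.124). It was also lost after median-ratio scaling (-1.07, 0.0679), after quantile normalization (-0.38, 0.331) and without a filter (0.0958).

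The other members did not pass, and Jon65Aii had the smallest difference of the 5. Jon65Aiv averaged 4921 ± 572 RPKM on glucose and 9421 ± 2443 on standard medium (-0.91, SE 0.39, limma adjusted p = 0.106). Jon65Ai averaged 604 ± 166 on glucose and 1057 ± 40.9 on standard medium (-0.84, SE 0.28, limma adjusted p = 0.0575). The means of yip7 were 6187 ± 873 on glucose and 9947 ± 1527 on standard medium (-0.68, SE 0.31, limma adjusted p = 0.116). Jon65Aii averaged 961 ± 85.2 on glucose and 1128 ± 139 on standard medium (-0.23, SE 0.21, 95% confidence interval -0.69 to 0.24, limma adjusted p = 0.399).

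Over all tested genes 0.896% were called lower on glucose than on standard medium, against 1 of the 5 members. The libraries did not overlap, with glucose lower, in 4 of the 5 members and in 2.64% of all tested genes. When the repeat number was used as a block, 4 members passed: Jon65Aiii (limma adjusted p = 0.0147), Jon65Ai (0.0200), yip7 (0.0326) and Jon65Aiv (0.0392). That blocked fit called 290 of the 8036 tested genes lower and 3386 higher. Without agar replicate 3, which enters this comparison through the shared estimate of the spread, the same 4 passed as well (0.0160 to 0.0270). In that fit 126 of the 8036 tested genes were called lower. The median difference over all genes was 0.25, and 0.0074 after median-ratio scaling, under which the members lay between -0.55 for Jon65Aii and -1.23 for Jon65Aiv.

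Glucose was compared with agar to ask whether sugar altered the genes relative to agar. None of the 5 was called by limma, and 0 had an unadjusted p under 0.05, which 845 of the 8036 tested genes had. In this comparison 0.0373% of all tested genes were called higher and 0.249% lower. The means were higher on glucose for each member, and 55.6% of all tested genes had a negative difference. Those of yip7 were 6187 ± 873 RPKM on glucose and 4099 ± 1673 on agar (0.68, 95% confidence interval -0.02 to 1.37, limma adjusted p = 0.501). Those of Jon65Aiv were 4921 ± 572 on glucose and 3296 ± 1803 on agar (0.74, -0.16 to 1.63, limma adjusted p = 0.614).

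Jon65Aiii averaged 5877 ± 646 RPKM on glucose and 4890.5 ± 1346 on agar (0.30, 95% confidence interval -0.21 to 0.80). Jon65Ai averaged 604 ± 166 on glucose and 509 ± 162 on agar (0.27, -0.37 to 0.91), and Jon65Aii 961 ± 85.2 on glucose and 860.4 ± 235 on agar (0.19, -0.28 to 0.66). The limma adjusted p was 0.759, 0.856 and 0.865 for these 3. Glucose and agar libraries overlapped for all 5 genes, while 15.5% of all tested genes had no overlap in either direction. Single libraries moved the difference in means in both directions. Without agar replicate 3 the differences were 0.32 for yip7, 0.27 for Jon65Aiv, 0.09 for Jon65Aiii, 0.04 for Jon65Aii and -0.03 for Jon65Ai. With another library left out they reached 1.14 for Jon65Aiv, 0.96 for yip7 and 0.49 for Jon65Aiii. The highest was 0.46 for Jon65Ai and 0.40 for Jon65Aii. After quantile normalization Jon65Aiii was at -0.08. The comparisons of glucose and of agar with standard medium share the standard libraries, so their likeness is not independent evidence.

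The proportions of the 5 genes are described by their shares and by ratios between pairs of them. Of their summed RPKM, Jon65Aii made up 4.42% to 6.01% on glucose, 5.63% to 8.07% on agar and 3.36% to 4.04% on standard medium, and each standard library was below each of the other 6. Jon65Aiv made up 25.7% to 27.2% on glucose, 18.3% to 27.4% on agar and 27.1% to 32.6% on standard medium. Jon65Aiii made up 31.5% to 32.0% on glucose, 33.3% to 42.1% on agar and 30.1% to 32.7% on standard medium, highest in agar replicate 3. The share of yip7 was 32.4% to 34.6% on glucose, 27.7% to 31.2% on agar and 30.98% to 32.96% on standard medium, and that of Jon65Ai was 2.70% to 4.45% over all libraries.

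Ratios between members, taken within each library, were tested over the 3 diets with an exact permutation test of the F statistic (1680 assignments, smallest possible p 0.00357), adjusted over the 10 pairs. In this test 3 pairs passed. With diets permuted within the repeat number, which paired the libraries, 0 passed (adjusted p of at least 0.0694, with 216 assignments). The smallest possible p of that setting was 0.0278. The 3 pairs, and Jon65Aiii to Jon65Aii, were at this smallest p, so the setting has too few assignments to decide whether they hold. Such ratios do not depend on the scaling of a library. The ratio of Jon65Aiv to Jon65Aii had log2 means of 2.35 ± 0.24 on glucose, 1.81 ± 0.55 on agar and 3.04 ± 0.22 on standard medium, with every standard library above all others (exact p = 0.00714, adjusted p = 0.0238). The ratio of yip7 to Jon65Aii was at 2.68 ± 0.23 on glucose, 2.19 ± 0.36 on agar and 3.14 ± 0.17 on standard medium (exact p = 0.00714, adjusted p = 0.0238). The ratio of yip7 to Jon65Aiii was at 0.07 ± 0.06 on glucose, -0.31 ± 0.25 on agar and 0.01 ± 0.04 on standard medium, with all 3 agar libraries below the other 6 (exact p = 0.00714, adjusted p = 0.0238).

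The remaining 7 pairs did not pass. Nearest were Jon65Aiii to Jon65Aii, at 2.61 ± 0.21 on glucose, 2.50 ± 0.14 on agar and 3.13 ± 0.14 on standard medium (exact p = 0.0214, adjusted p = 0.0536), and Jon65Aiv to Jon65Aiii (exact p = 0.0321, adjusted p = 0.0643). The ratio of Jon65Aiii to Jon65Ai had the diet means that lay closest together. It was at 3.31 ± 0.27 on glucose, 3.29 ± 0.25 on agar and 3.22 ± 0.23 on standard medium (exact p = 0.968, adjusted p = 0.968). Between single libraries it ranged from 2.99 to 3.51. Without any 1 of glucose replicates 1 and 2, agar replicate 3 or the 3 standard libraries 0 pairs passed, and without glucose replicate 3 or agar replicate 1 or 2 there were 3, 3 and 4.

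**Figure D4:**
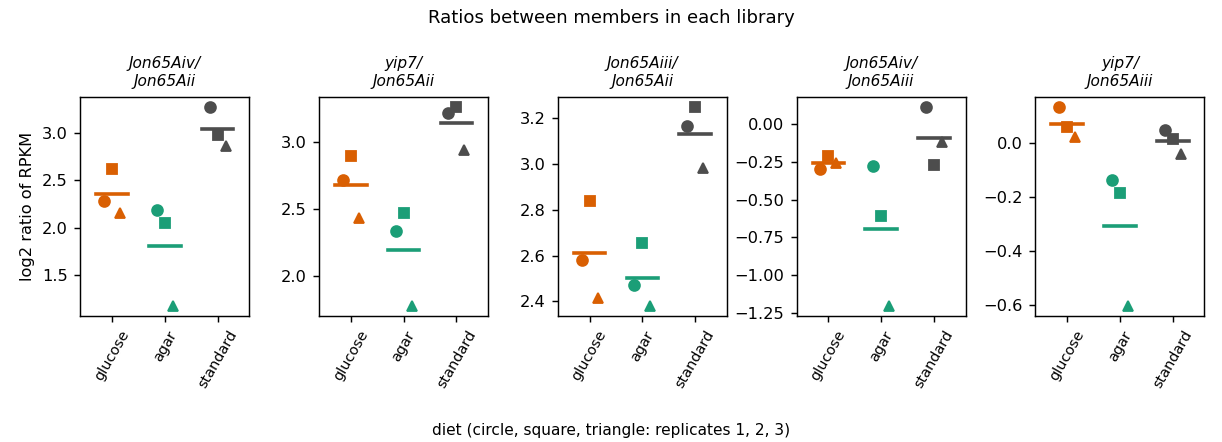
Log2 ratios of RPKM between members in each library for 5 of the 10 pairs, by diet, with bars for the mean of 3 libraries. The vertical axes differ between panels. Ratios to Jon65Aii are highest in the standard libraries, and the ratio of yip7 to Jon65Aiii is lowest in the agar libraries.

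The genes whose levels were most like those of each member were found by Pearson's r of log2(RPKM + 1) over the 9 libraries, given as a description because these libraries share diets and repeats. Nearest to yip7 were the Jonah protease gene Jon99Fi (0.996), CG12057 (0.986) and the trypsin gene deltaTry (0.986). Nearest to Jon65Aiv were Jon99Cii (0.993), CG12057 (0.991) and Jon99Ciii (0.990). The r between yip7 and Jon65Aiv was 0.991, so that each was second in the order of the other. Nearest to Jon65Aiii were mwh (0.993) and the lysozyme genes LysB (0.992) and LysE (0.991), and the annotated span of mwh overlaps both lysozyme genes. Those genes were at 1749 RPKM on glucose, 1441 on agar and 4662 on standard medium for LysB and at 588, 497 and 1433 for LysE.

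The pair with lower levels had other nearest genes. For Jon65Ai these were Ag5r2 (0.963), Jon66Cii (0.958) and the lysozyme gene LysS (0.952). For Jon65Aii they were the muscle actin gene Act79B (0.964), Gtp-bp (0.958), which encodes a subunit of the signal recognition particle receptor, and the lipase gene CG6295 (0.952). Some of these genes had low levels. LysS averaged 0.57, 0.41 and 1.28 RPKM on glucose, agar and standard medium, so its mean reached the filter of 1 RPKM on standard medium only. Act79B averaged 1.10, 0.87 and 1.52 RPKM, and Jon66Cii 3.37, 1.72 and 9.22. Jon65Ai and Jon65Aii, direct neighbours on opposite strands, had an r of 0.652 with each other, the lowest of the 10 pairs.

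The same comparisons in related proteases were read from lists of 12 other Jonah genes and 12 trypsins, 12 and 11 of which were tested. On agar versus standard medium 6 of the 12 other Jonah genes were called lower and 0 higher, beside 2.23% and 37.7% of all tested genes. The median difference of the 12 was -1.47, beside -1.11 for the 5 members and 0.28 over all genes. The 6 were Jon25Bii (-1.97), Jon66Cii (-1.95), Jon25Bi (-1.76), Jon99Fi (-1.66), Jon99Cii (-1.49) and Jon99Ciii (-1.46), with limma adjusted p from 0.00626 to 0.0286. In the blocked fit 9 were lower and 1 higher, beside 384 and 4096 of the 8036 tested genes. With 1 library left out 4 to 8 of the 12 were lower. With quantile normalization 4 were lower and the median was -0.81, and the calls of Jon99Cii (-0.57, adjusted p = 0.427) and Jon99Ciii (-0.91, 0.116) were lost. With median-ratio scaling 5 were lower and the median was -1.83, and Jon99Ciii was at an adjusted p of 0.0504. Jon99Cii and Jon99Ciii were also lost without standard replicate 1 (0.0601 and 0.0737). Of the 11 trypsins 2 were called lower (5 with the block), deltaTry (-1.31, limma adjusted p = 0.0286) and thetaTry (-0.41, limma adjusted p = 0.0279), with a median of -0.39. There were 4 after median-ratio scaling (median -0.75), and 0 after quantile normalization (median -0.02) or when the 6 compared libraries were fitted alone. Without agar replicate 2 or any 1 of the standard libraries 0 trypsins were called, without glucose replicate 1 or 2 there was 1, and without agar replicate 1 there were 3. The trypsin with the highest level, alphaTry, averaged 8150.3 ± 2641 RPKM on agar and 8739.5 ± 1527 on standard medium (-0.14, limma adjusted p = 0.675), and betaTry 5618 ± 2272 on agar and 7013 ± 1579 on standard medium (-0.39, limma adjusted p = 0.340).

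On glucose versus standard medium 2 of the 12 other Jonah genes were called lower, Jon25Bii (-2.79) and Jon25Bi (-2.67), both at a limma adjusted p of 0.00965. In this comparison 0.896% of all tested genes were called lower. All 12 of these Jonah genes had negative differences, as did 13.9% of all tested genes. Their median was -0.87, beside -0.75 for the 5 members. With the block 8 of the 12 were lower, beside 290 of the 8036 tested genes. Without agar replicate 3 there were 7 of the 12, and with any other library left out 2 or 3. Of the 11 trypsins 0 were called by limma and 0 had an unadjusted p under 0.05, which 3583 of the 8036 tested genes had. The median of the trypsins was -0.15, and 0.15 after quantile normalization. On glucose versus agar 0 of the other Jonah genes and 0 of the trypsins were called by limma, with medians of 0.24 and 0.23, beside 0.30 for the 5 members and -0.02 over all genes. Without agar replicate 3 these medians were -0.09 for the other Jonah genes and 0.04 for the trypsins. That of the other Jonah genes was 0.02 without glucose replicate 2, 0.42 without glucose replicate 3 and 0.48 without agar replicate 1. The other Jonah genes went both ways, with 5 of 12 differences negative, whereas 0 of the members had a negative difference. The unadjusted p was under 0.05 for 4 of these Jonah genes and 1 trypsin, beside 845 of the 8036 tested genes. Of the 4, Jon99Ci (-1.19), Jon25Bi (-0.92) and Jon25Bii (-0.82) were lower on glucose and Jon99Fi (0.88) was higher. With the block 1 Jonah gene was called lower, beside 140 of the 8036 tested genes. Jon99Ciii and Jon99Cii, which had the highest levels among the other Jonah genes, averaged 3226 ± 616 and 2570.0 ± 475 RPKM on glucose, 2428 ± 1417 and 1877 ± 1046 on agar and 5920 ± 1386 and 4737 ± 1102 on standard medium. How the counting treated reads that match several of these similar genes is not known here.

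**Figure D5:**
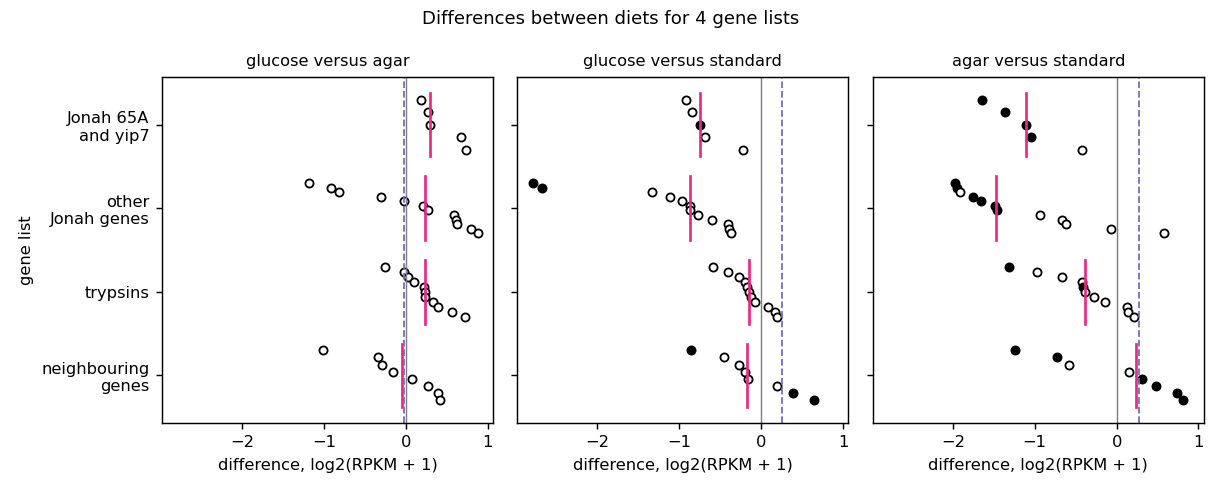
Log2 differences for the 5 genes, the other Jonah genes, the trypsins and the neighbouring genes in the 3 comparisons, 1 point per gene, filled where the limma adjusted p is under 0.05, with the list median as a vertical bar and the median of all tested genes as a dashed line. In agar versus standard the medians are -1.11, -1.47, -0.39 and 0.23 from top to bottom.

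Calls among the genes around the cluster went in both directions. Of 11 annotated neighbours within 20 kb of a member 8 had a row and were tested. On agar versus standard medium 2 neighbours were called lower (3 in the blocked fit) and 4 higher, and on glucose versus standard medium 1 was lower (2 in the blocked fit) and 2 were higher. These stand beside the 37.7% and 21.3% of all tested genes called higher on agar and on glucose, and the 2.23% and 0.896% called lower. The counts called higher are therefore not read as a result about the neighbours. In the blocked fit 384 and 290 of the 8036 tested genes were called lower on agar and on glucose. After median-ratio scaling 0 neighbours were called higher in either comparison, and 2 were lower on agar and 1 on glucose. CG6462, which stands between yip7 and Jon65Aiv, fell in both comparisons, to 4.17 ± 0.771 RPKM on glucose and 2.96 ± 0.696 on agar, against 8.26 ± 0.172 on standard medium (-0.85 and -1.24, limma adjusted p = 0.0171 and 0.00301). The non-coding gene listed as CG43952 beside yip7 was at 2.33 ± 0.733 on agar and 4.43 ± 0.198 on standard medium (-0.73, limma adjusted p = 0.0121). CG6462 and CG43952 were far below the members in level.

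CG10477, a predicted serine protease gene on the other side of yip7, went the opposite way. It averaged 358 ± 42.1 RPKM on glucose and 406 ± 92.6 on agar, against 227 ± 17.3 on standard medium (0.65 and 0.81, limma adjusted p = 0.0444 and 0.0145), and neither call held after median-ratio scaling (0.33 and 0.45, 0.440 and 0.205). CG10472, a predicted serine protease gene beyond Jon65Ai, averaged 2626 ± 270 on glucose and 2064 ± 828 on agar, against 2966 ± 640 on standard medium, and was not called (limma adjusted p = 0.674 and 0.135). The gene tant, listed under its older name tan, was higher in both comparisons (0.39 and 0.32, limma adjusted p = 0.0223 and 0.0216), and CG42269 and CG13295 were higher on agar (0.74 and 0.48, limma adjusted p = 0.0445 and 0.0289). None of these 3 passed after either scaling. Without any 1 of the glucose libraries or standard replicate 3, 0 neighbours were called between glucose and standard medium. Those called higher on agar numbered 0 without agar replicate 2, 1 without standard replicate 1 or 3 and 2 without standard replicate 2. On glucose versus agar 0 of the 8 neighbours were called by limma, and 2 had an unadjusted p under 0.05, beside 845 of the 8036 tested genes.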

How the data were processed

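RNA-seq of whole guts was deposited as 1 table per library with 1 value per gene. The values are log2 RPKM as deposited by the authors. CASAVA 1.82, Bowtie2 2.1 and limma are named in the submitters' processing notes; the library kit keeps strand, per the labels, and what build, annotation, strand setting and multi-mapping rule the counting used is not stated there. The values have the form of log2 of (reads + 0.5) per (library total + 1), scaled to length, from which library totals were recovered. Each library was assigned to its diet by its labels, which call the repeats biological.

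The deposited values were turned back into RPKM. Genes reaching 1 RPKM in 3 or more libraries were kept (8036 of 10245), and limma 3.58.1 in R 4.3.3 (empirical Bayes with a variance trend) was fitted to log2(RPKM + 1) over all 9 libraries with 1 mean per diet. Differences are on that scale, p-values were adjusted by Benjamini-Hochberg over the 8036 genes, and an adjusted p under 0.05 was called. The fit was tested on simulated data. Ratios between members used the deposited values and an exact permutation test. Other steps used pandas 2.3.3 and NumPy 2.4.6 in Python 3.11.15, with plots by Matplotlib 3.10.9. Counting errors cover counting only.

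The repeat numbers paired the libraries: deviations from the diet means correlated between same-numbered libraries in each of 9 pairs (0.17 to 0.59), against -0.53 to 0.29 in the 18 other pairs. The pairing is read from this check and the labels' numbers; the labels do not say what a number shares. Values with the number as a block are given beside results whose call they change. Alternatives covered pseudocount, filter, scaling, the libraries fitted, the block and leaving out each library.

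Named genes were the 5 members, the called and the 2 most abundant genes of each list (other Jonah proteases, trypsins, genes within 20 kb), and the 3 tested genes most like each member. Jon99Ci was added for its unadjusted p between glucose and agar. Members and lists were chosen with earlier results of these data known. Gene order came from a RefSeq table of Release 6, exons and protein lengths from BDGP6.54. Sequence features of the genes were not analysed here, nor were listed markers without a row.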

Additional observations from a re-analysis of the deposited data

How the results depend on the processing

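Between glucose and standard medium 1 of the 5 genes was called lower. There were 4 when the 6 compared libraries were fitted alone or the replicate block was used, 3 with median-ratio scaling and the block together, and 0 with median-ratio scaling, with quantile normalization, without a filter or with standard replicate 1 as the sole standard library. Leaving out 1 library gave 0 to 4. Between agar and standard medium 4 were called, against 1 with quantile normalization, 0 with standard replicate 1 alone, 5 with median-ratio scaling and the block, and 3 to 5 when 1 library was left out. Between glucose and agar there were 0 under every alternative run, and Jon65Aiii turned to -0.0768 with quantile normalization and Jon65Ai to -0.0303 without agar replicate 3, the lowest of -0.0303 to 0.46 with 1 library left out. No other difference of a member changed sign.

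Over all genes, 23 were called between glucose and agar. This became 10 without a filter, 49 with a filter of 5 RPKM, 12 with median-ratio scaling, 11 with quantile normalization, 2 with the 6 libraries alone, 191 with the replicate block, alone or with median-ratio scaling, 2 with standard replicate 1 alone and 1 to 115 with 1 library left out. Between glucose and standard medium the 1787 calls, 1715 of them higher, became 1113 with the filter of 5 RPKM, 76 with median-ratio scaling (25 higher), 56 with quantile normalization (28 higher), 3676 with the block, 437 with block and scaling, 0 with standard replicate 1 alone (1483 at an unadjusted p under 0.05) and 9 to 2729 with 1 library left out. Between agar and standard medium the 3210 calls, 3031 of them higher, became 2063 with the filter of 5 RPKM, 375 with median-ratio scaling (145 higher), 338 with quantile normalization (213 higher), 1990 with the 6 libraries alone, 4480 with the block, 1156 with block and scaling, 0 with standard replicate 1 alone (2365 at an unadjusted p under 0.05) and 1667 to 3243 with 1 library left out. A sole standard library is assumed to vary like the other diets. The setting with standard replicate 1 alone, that with block and scaling together and the alternatives for ratios were chosen after seeing the data. Quantile normalization gives each rank 1 value in all libraries, which by construction limits differences of the highest ranks. What part this had in any change was not tested, nor was the cause of the changes under the other settings. Counting error of the members was at most 0.912%.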
